A study of Homo sapiens with 4 samples.

Results

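The genes described here carry sulfur from methionine to cysteine, bring cystine into the cell, and make, recycle, use or break down glutathione. They are CBS, CBSL, CTH, SLC7A11, CHAC1, GCLC, GCLM, GSS, GSR and GPX4, chosen by symbol, and all 10 were found among the 16057 genes of the deposited table. Transcripts were measured by RNA sequencing of total RNA from the cell line MM.1S, which derives from human multiple myeloma. One group received JG342, an inhibitor that binds the chaperone HSP70 away from its active site, at 350 nM, and the control group received the solvent DMSO. Both groups were grown in the same RPMI-1640 medium with serum and glutamine and were collected at 26 h. Each group has 2 libraries, described by the submitters as biological duplicates, so every result rests on 1 cell line, 1 dose and 1 time.

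In transsulfuration, cystathionine beta-synthase joins homocysteine to serine and cystathionine gamma-lyase splits the product to release cysteine. Cells can also import cystine, the oxidised dimer, through a carrier made of the SLC7A11 and SLC3A2 proteins. Glutamate-cysteine ligase and then glutathione synthetase build glutathione from glutamate, cysteine and glycine, glutathione reductase restores it after oxidation, and GPX4 spends it to repair peroxidised membrane lipids. Several of these genes are known targets of the stress transcription factors ATF4 or NRF2.

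CBS, its near-identical copy CBSL, SLC7A11 and CHAC1 were higher with JG342 (4 of 10), at a limma adjusted p under 0.05. No member passed as lower. Of the 12042 genes fitted, 18.4% passed in either direction and 10.8% passed as higher. Across members the median log2 fold change was 0.37 over the 10 members and 0.03 over all fitted genes. CTH, GCLC, GCLM, GSS, GSR and GPX4 did not pass. The libraries of the groups did not overlap for 8 members, 6 of them higher and 2 lower with JG342, and such separation was seen for 62.1% of all fitted genes, 34.0% higher and 28.2% lower. Values are TPM, read shares scaled for transcript length and library total, fold changes are on the log2(TPM + 1) scale, and depth is unknown because TPM does not keep it.

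**Figure D1:**
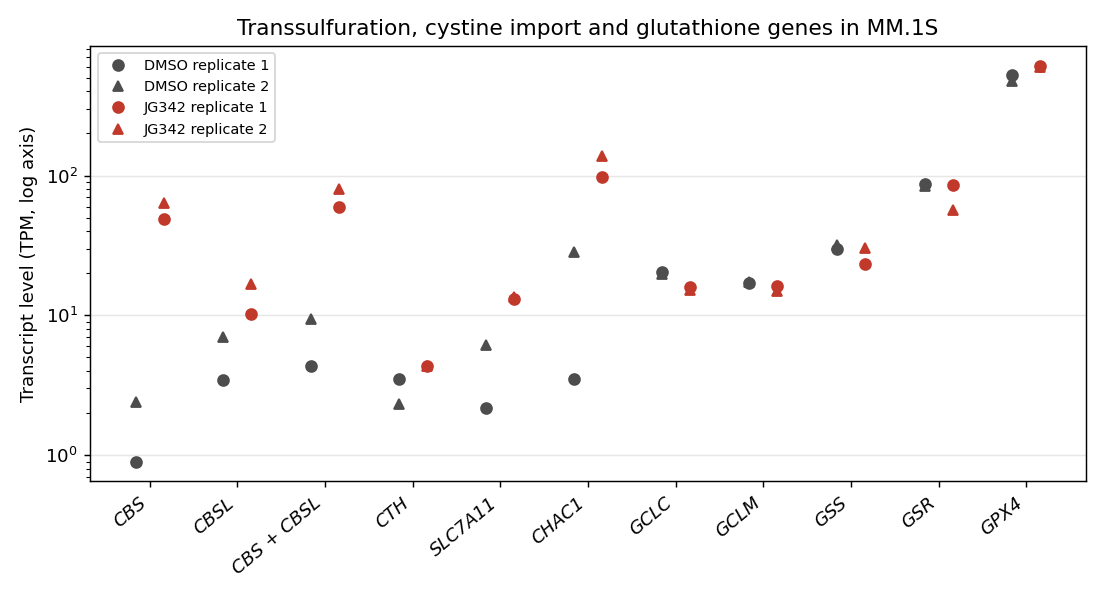
Transcript level in TPM on a log axis for each member and for CBS and CBSL summed, with 1 point per library (grey, DMSO; red, JG342; circles, replicate 1; triangles, replicate 2). The DMSO points of CBS, CBSL, SLC7A11 and CHAC1 lie below their JG342 points, and GPX4 is the highest gene in every library.

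In the DMSO control libraries the members spanned a wide range of levels. GPX4 was highest in DMSO at 498 ± 31.3 TPM (SD, n = 2), followed by GSR at 85.5 ± 1.07, GSS at 30.8 ± 1.29, GCLC at 20.2 ± 0.42 and GCLM at 17.2 ± 0.21 TPM. These 5 neighbours were separated by more than their library ranges. CHAC1 had a DMSO mean of 15.9 ± 17.5 TPM, and its 2 libraries lay on either side of GCLC and GCLM. The DMSO ranges of CBSL, SLC7A11 and CTH overlapped each other, and that of CBS overlapped those of SLC7A11 and CTH. With JG342 the order changed: CHAC1 stood second after GPX4, and the range of CBS overlapped that of GSR.

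A search of promoter sequence shows which members carry letters known to be bound by those factors. Promoter windows from RefSeq (GRCh38.p14) were used for 7 of the 10 members, 14 windows in all. Each covered the 250 bases before a listed start. No window was used for SLC7A11, which rose with JG342, or for GSS and GSR, so these were not searched. Each window was searched on both strands for TGATGNAA, the core of the C/EBP-ATF response element, and for TGACNNNGC, the core of the antioxidant response element. The former occurs in 3.1% of all 35116 such windows and the latter in 10.9%. The matches in CHAC1, CBSL, CBS and GCLM are shown 5′ to 3′ on the strand of the gene, with the match in capitals, because CHAC1, CBSL and CBS rose with JG342 and GCLM did not pass.
CHAC1, chr15:40953221-40953329, plus strand: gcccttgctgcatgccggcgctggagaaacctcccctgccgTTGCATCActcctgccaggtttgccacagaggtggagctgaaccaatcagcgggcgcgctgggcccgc
CBSL, chr21:6467339-6467366, minus strand: ccgcccagagTTGCATCAtctgcaccga
CBS, chr21:43076442-43076470, minus strand: ccggctctggGCGCGGTCAcgcggggcgc
GCLM, chr1:93909431-93909524, minus strand: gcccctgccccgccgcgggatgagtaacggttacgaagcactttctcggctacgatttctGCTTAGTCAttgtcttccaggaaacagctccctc
The capitals in CHAC1 and CBSL are the C/EBP-ATF core read on the other strand (TTNCATCA), starting 209 bases before the listed start of CHAC1 and 159 bases before 1 of the 4 listed starts of CBSL. The capitals in CBS and GCLM are the antioxidant core read on the other strand (GCNNNGTCA), starting 83 and 34 bases before a listed start. The CBS stretch also occurs letter for letter upstream of another start of CBSL. The windows of the 3 listed starts of CBS held no C/EBP-ATF core. CBS sequence outside those windows was not searched, so this difference from CBSL describes the listed starts only. No printed match overlapped one of the other motif, and the windows of CTH, GCLC and GPX4 held neither set of letters. A match is a description of the letters, and binding was not measured.

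Read as a row of its own, CBS had the largest log2 fold change in size of all 12042 fitted genes. It encodes cystathionine beta-synthase, which makes the committing step of transsulfuration. CBS (NM_000071) read 0.90 and 2.40 TPM in DMSO replicates 1 and 2, and 49.2 and 63.7 TPM in JG342 replicates 1 and 2. Both JG342 libraries were far above both DMSO libraries. The log2 fold change was 4.49 ± 0.26 SE (limma adjusted p 3.76e-05), and it was 4.07 and 4.91 without DMSO replicates 1 and 2 and 4.67 and 4.30 without JG342 replicates 1 and 2. The ratio of group means was 34.2, but 23.5 without DMSO replicate 1 and 62.7 without DMSO replicate 2. CBSL (NM_001321073) read 3.46 and 7.02 TPM in DMSO and 10.2 and 16.7 TPM with JG342, again without overlap. Its log2 fold change was 1.24 ± 0.29 SE (limma adjusted p 0.0205). The CBSL call was lost without DMSO replicate 1, where the change was 0.81 and the limma adjusted p 0.101, and without JG342 replicate 2, where they were 0.91 and 0.0597.

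CBS and CBSL cannot be told apart over most of their sequence. In GENCODE 29 the 2605 nt transcript matched to CBS aligns to a CBSL transcript at 100% identity over 96.5% of its length, and the unmatched part is its first 91 nt. The RefSeq table for GRCh38.p14 has no gene whose own symbol is CBSL and gives CBSL as a synonym of CBS and of LOC102724560, which carries the CBSL accession and from which the CBSL promoter above was taken. The division of reads between the 2 rows is therefore uncertain, and their sum is the firmer value. The sum was 4.36 and 9.42 TPM in DMSO and 59.4 and 80.4 TPM with JG342. Its log2 fold change was 3.23 ± 0.28 SE, which passed with a limma adjusted p of 0.000226. That change was below the 3.80 ± 0.31 SE of ASS1, so the largest change of all genes belongs to the CBS row alone. CHAC1, at 3.34 ± 0.66 SE, was above the sum by less than its own SE. Without DMSO replicate 1 the order turned over, at 1.99 for CHAC1 and 2.75 for the sum. The ratio of group means of the sum was 10.1, or 7.42 without DMSO replicate 1 and 16.03 without DMSO replicate 2. The share of the sum listed under CBS also differed, at 20.6% and 25.5% in DMSO and 82.8% and 79.2% with JG342. Most of the sum was thus listed under CBSL in DMSO and under CBS with JG342. Since the rows share nearly all of their sequence, which copy gave the reads was not tested.

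**Figure D2:**
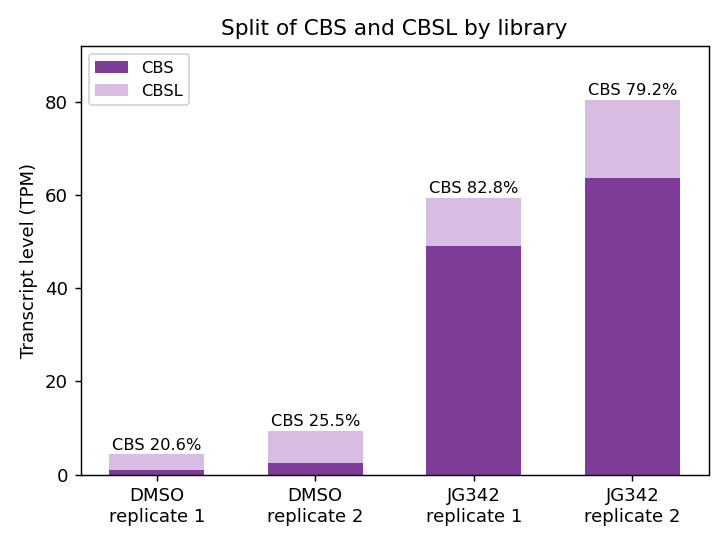
Stacked bars of CBS (dark) and CBSL (light) in TPM for each library, on a linear axis from 0, with the share listed under CBS above each bar. The bars reach 4.36 and 9.42 TPM with DMSO and 59.4 and 80.4 TPM with JG342, and the dark part grows from 20.6% and 25.5% to 82.8% and 79.2%.

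CTH, the other enzyme of transsulfuration, encodes cystathionine gamma-lyase and was low in every library. CTH (NM_001190463) read 3.50 and 2.32 TPM in DMSO and 4.37 and 4.33 TPM with JG342, so both JG342 libraries were slightly above both DMSO libraries. The log2 fold change of 0.47 ± 0.20 SE did not pass (limma adjusted p 0.138). In a fit blocked on replicate number the limma adjusted p was 0.0399, and blocking after median scaling gave 0.113. The summed level of CBS and CBSL was 1.25 and 4.06 times that of CTH in DMSO, and 13.6 and 18.6 times with JG342. Whether the change of CTH differs from that of CBS was not tested.

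The cystine carrier rose in both of its subunits. SLC7A11 (NM_014331), the transport subunit, read 2.18 and 6.17 TPM in DMSO and 13.2 and 13.6 TPM with JG342. The JG342 libraries were alike, and the DMSO libraries were lower but apart from each other. Its log2 fold change was 1.59 ± 0.32 SE (limma adjusted p 0.0104). It was 1.00 without DMSO replicate 1 and 2.18 without DMSO replicate 2, past the threshold both times (limma adjusted p 0.0191 and 0.000545). SLC3A2, the partner that carries SLC7A11 to the membrane and also serves other amino acid carriers, read 184 and 243 TPM in DMSO and 548 and 611 TPM with JG342, and changed by 1.45 ± 0.13 SE (limma adjusted p 0.000323). SLC3A2 stood 84.6 and 39.4 times above SLC7A11 in DMSO and 41.7 and 44.9 times above it with JG342. Without a filter on low values SLC7A11 did not pass (limma adjusted p 0.0938).

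CHAC1 had the largest log2 fold change among the members after the CBS row, and the widest spread between control libraries on the log2 scale. Its order against CBS and CBSL summed depended on the measure. The ratio of group means was 7.39 for CHAC1 and 10.1 for the sum. It encodes an enzyme that cleaves glutathione inside the cell. CHAC1 (NM_001142776) read 3.53 and 28.3 TPM in DMSO replicates 1 and 2, and 97.1 and 138 TPM in JG342 replicates 1 and 2. Every JG342 library was above every DMSO library, and DMSO replicate 2 was closer to the treated libraries than DMSO replicate 1. The log2 fold change was 3.34 ± 0.66 SE (limma adjusted p 0.0102), and the same-numbered differences were 4.44 and 2.25. It was 1.99 without DMSO replicate 1 and 4.69 without DMSO replicate 2, past the threshold both times (limma adjusted p 0.00104 and 1.11e-05). Without a filter on low values CHAC1 did not pass (limma adjusted p 0.103). DMSO replicate 2 was also above DMSO replicate 1 for CBS, CBSL and SLC7A11, by 0.84, 0.85 and 1.17 on the log2 scale, against 2.69 for CHAC1.

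**Figure D3:**
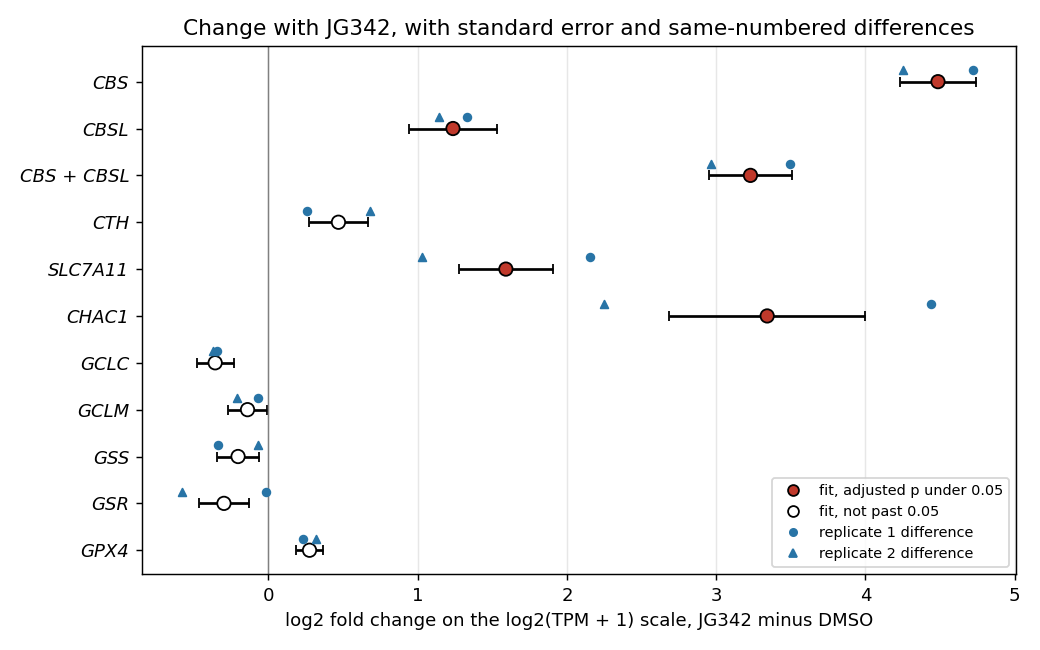
Log2 fold change of each member on the log2(TPM + 1) scale, JG342 minus DMSO, with its standard error (bars), and the differences of the libraries numbered 1 (blue circles) and 2 (blue triangles); filled points passed a limma adjusted p of 0.05. CBS, CBSL, SLC7A11 and CHAC1 passed, and the blue points of CHAC1 lie at 4.44 and 2.25.

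None of the genes of glutathione synthesis, GCLC, GCLM and GSS, passed the test. GCLC (NM_001197115), the catalytic subunit of glutamate-cysteine ligase, read 20.4 and 19.9 TPM in DMSO and 15.9 and 15.1 TPM with JG342. Its libraries did not overlap, and the log2 fold change was −0.36 ± 0.12 SE (limma adjusted p 0.0774). GCLC did pass after scaling the libraries to equal medians (limma adjusted p 0.0402), after quantile normalization (0.0398), when blocked on replicate number (0.0263), and when blocked after median scaling (0.0138). GCLM (NM_001308253), the modifier subunit of the same enzyme, read 17.1 and 17.4 TPM in DMSO and 16.2 and 14.9 TPM with JG342, and the difference of −0.14 ± 0.13 SE on the log2 scale was not past the threshold (limma adjusted p 0.478). The level of GCLC over that of GCLM was 1.197 and 1.143 in DMSO and 0.98 and 1.02 with JG342. GSS (NM_000178), glutathione synthetase, read 29.9 and 31.7 TPM in DMSO and 23.4 and 30.3 TPM with JG342, so that the groups overlapped, and its log2 difference was −0.20 ± 0.14 SE (limma adjusted p 0.349).

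GSR, the reductase that returns oxidised glutathione to its working form, rested on 1 library. GSR (NM_000637) read 86.3 and 84.8 TPM in DMSO and 85.4 and 56.3 TPM with JG342, and only JG342 replicate 2 was low. The log2 fold change of −0.30 ± 0.17 SE did not pass (limma adjusted p 0.256). Without JG342 replicate 1 it was −0.59 (limma adjusted p 0.0139), and without JG342 replicate 2 the limma adjusted p was 0.995. GSR passed when blocked on replicate number (limma adjusted p 0.00922) and when blocked after median scaling (0.0353). Without scaling the same-numbered differences were −0.01 and −0.58.

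**Figure D4:**
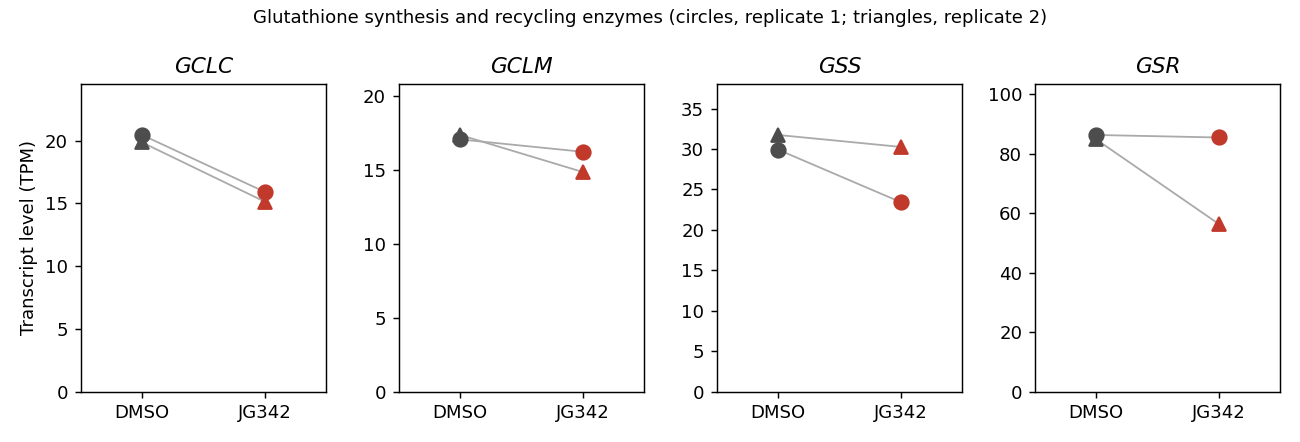
Levels of GCLC, GCLM, GSS and GSR in TPM on linear axes from 0, with grey lines joining libraries of the same number. GCLC is lower with JG342 in both pairs, at 15.9 and 15.1 TPM against 20.4 and 19.9 TPM, and GSR is low in JG342 replicate 2 alone, at 56.3 TPM.

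GPX4, the selenium-containing peroxidase that protects membrane lipids, was the most abundant member. GPX4 (NM_001039847) read 520 and 476 TPM in DMSO and 610 and 594 TPM with JG342, without overlap. The log2 fold change of 0.28 ± 0.09 SE did not pass (limma adjusted p 0.0674). It passed after quantile normalization (limma adjusted p 0.0391) and when blocked on replicate number (0.00191), but not when blocked after median scaling (0.108). GPX4 held most of the measured transcript of genes named GPX. Of the others, GPX7 and GPX8 lay between 2.23 and 16.2 TPM, and GPX1, GPX2 and GPX3 did not exceed 1.59 TPM in any library. These 5 genes were picked for this level comparison after their values were seen. PRDX6, on the list of peroxidases and glutaredoxins under another name, read 187 and 218 TPM in DMSO and 184 and 176 TPM with JG342.

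In the fit blocked on replicate number 8 members passed, 6 higher and 2 lower, where 34.9% of all fitted genes passed in either direction. The members added were CTH and GPX4 as higher and GCLC and GSR as lower. That fit leaves 1 residual degree of freedom per gene and takes each gene's variance from its expression level. When blocked after median scaling 6 members passed, the 4 named first with GCLC and GSR, where 33.1% of all fitted genes passed in either direction. For all 10 members the differences within both pairs of libraries had 1 sign, though that of GSR was only −0.01 for replicate 1. Groups without overlap, seen for 62.1% of all fitted genes, always give 1 sign. The full share over all fitted genes was not counted, so the 10 are not set apart by this. No member's sign reversed in any alternative run.

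Genes next to these in sulfur and redox metabolism were read from 11 textbook lists holding 138 genes, of which 126 were in the table and 106 were fitted. Of the 106, 17 passed as higher and 14 as lower, and their median log2 fold change was 0.03, the same to 2 decimals as over all fitted genes. The background over all fitted genes was 10.8% higher and 7.62% lower, and no list was tested as a set. Blocked on replicate number, 26 of the 106 passed as higher and 24 as lower, beside 2316 and 1891 of all 12042 fitted genes. Blocked after median scaling the numbers were 19 and 29, beside 1675 and 2310 of all 12042. The blocked counts of single lists below have the same 2316 and 1891 as their background.

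Among 5 fitted carriers of cystine, cysteine or exchanged amino acids, 3 rose and none fell, with a median of 0.88. Besides SLC3A2 these were SLC1A5, which carries glutamine and other neutral amino acids (0.92, limma adjusted p 0.00202), and SLC3A1, a cystine carrier subunit (0.88, limma adjusted p 0.0159). Without a filter on low values SLC3A1 did not pass (limma adjusted p 0.0924). SLC7A9, on the same list but not fitted, read 0 in both DMSO libraries and 0 and 0.12 TPM with JG342. Of 9 fitted genes on the methionine cycle list 3 rose and none fell, with a median of 0.07. They were AHCYL1 and AHCYL2, relatives of the enzyme that yields homocysteine, at 0.70 and 0.45 (limma adjusted p 0.00486 and 0.0257). The other was MTRR, which reactivates methionine synthase, at 0.37 (limma adjusted p 0.0286). Without the mean-variance trend AHCYL2 and MTRR did not pass (limma adjusted p 0.051 and 0.0826). MAT2A, which makes S-adenosylmethionine, and AHCY itself did not pass, at −0.26 and −0.20 (limma adjusted p 0.0715 and 0.156). MAT2A passed as lower when blocked on replicate number (limma adjusted p 0.00613) and when blocked after median scaling (0.0118), and AHCY passed in the latter fit (0.0267) but not in the former (0.0579). Of 8 genes that break down cysteine or sulfide, 2 rose and none fell, with a median of 0.31. GOT1, an aspartate aminotransferase that also acts on a cysteine product, went from 76.5 and 76.1 TPM to 174 and 169 TPM (1.16, limma adjusted p 0.000171), and MPST, which passes sulfur from mercaptopyruvate, rose by 0.42 (limma adjusted p 0.0496). After median scaling MTRR and MPST did not pass (limma adjusted p 0.0593 and 0.0724). In glutathione breakdown 1 of 8 genes passed, OPLAH, which opens 5-oxoproline. It read 0.37 and 0.42 TPM in DMSO and 2.06 and 1.83 TPM with JG342, and was fitted only because its JG342 level lifted its mean past 1 TPM. It is 1 of the 17 list genes counted as higher, and without it 16 passed. CHAC2, a relative of CHAC1, and GGCT, another glutathione-breakdown enzyme, did not pass at −0.39 and −0.36 (limma adjusted p 0.116 and 0.143). Both passed as lower when blocked on replicate number (limma adjusted p 0.00335 and 0.000846), and GGCT also when blocked after median scaling (0.0141, against 0.052 for CHAC2). Blocked on replicate number, 4 carriers rose and none fell, and 3 genes on the methionine cycle list rose and 1 fell. In the same fit 4 genes of cysteine or sulfide breakdown rose and none fell, and in glutathione breakdown 1 rose and 2 fell.

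Of 12 fitted thioredoxin system genes 6 fell and 2 rose, with a median of −0.31. PRDX1, a cytosolic peroxiredoxin, fell from 621 and 647 TPM to 366 and 359 TPM (−0.80, limma adjusted p 0.000774). TXNRD1, the cytosolic thioredoxin reductase, and PRDX3, the mitochondrial peroxiredoxin, fell by 0.51 and 0.43 on the log2 scale. PRDX5, another peroxiredoxin, rose from 368 and 374 TPM to 572 and 688 TPM (0.76, limma adjusted p 0.00264). Of 12 glutathione transferases 3 fell and none rose, with a median of −0.17: MGST2 (−1.02, limma adjusted p 0.00331), GSTO1 (−0.63) and GSTP1 (−0.39). Among 7 other peroxidases and glutaredoxins GLRX5, which serves iron-sulfur cluster assembly, fell (−0.39), and among 5 exporters and importers of glutathione ABCC5 fell (−0.58). Blocked on replicate number, 2 thioredoxin system genes rose and 8 fell, 3 transferases rose and 4 fell, and 1 peroxidase or glutaredoxin rose and 2 fell.

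The remaining lists were mixed. Among 13 genes of NADPH supply 3 rose and 1 fell, with a median of 0.14. IDH1, the cytosolic isocitrate dehydrogenase, went from 40.5 and 35.6 TPM to 175 and 136 TPM (1.99, limma adjusted p 6.1e-05), NADK2, the mitochondrial NAD kinase, rose by 1.02, PGLS of the pentose phosphate pathway rose by 0.78, and TKT of the same pathway fell by 0.50. Among 15 genes for selenoproteins and their synthesis 2 rose and 1 fell, with a median of −0.05: SEPHS2, which makes the selenium donor, at 0.89, SELENOS at 0.64 and SELENOT at −0.58. Among 12 genes of lipid peroxidation and ferroptosis SAT1, a polyamine acetylase, rose (0.82) and LPCAT3, which loads polyunsaturated chains onto phospholipids, fell (−0.57), with a median of −0.06. Blocked on replicate number, the genes that rose and fell numbered 4 and 3 for NADPH supply, 3 and 1 for selenoproteins, and 1 and 2 for lipid peroxidation. The 27 list genes named by rule had all passed in the main fit, which is how they were chosen apart from SLC3A2. On leaving out each library none changed sign, but MPST ran from 0.29 to 0.55 and LPCAT3 from −0.78 to −0.37. Without the mean-variance trend 18 of the 27 passed, beside 1508 of all 12042 fitted genes, against 2221 in the main fit. AHCYL2, MTRR, MPST, GLRX5, GSTP1, ABCC5, PRDX3, SELENOT and LPCAT3 were those that lost the threshold.

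**Figure D5:**
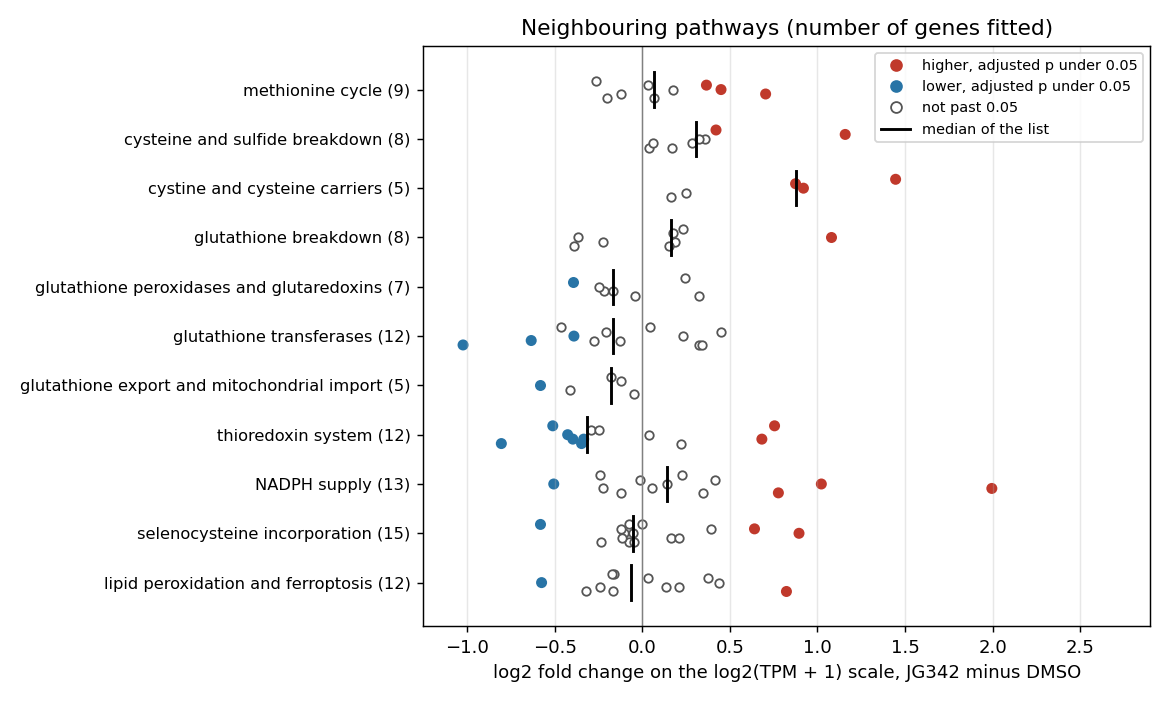
Log2 fold change of each fitted gene in 11 neighbouring lists, with the number fitted in brackets (red, passed as higher; blue, passed as lower; open, not past a limma adjusted p of 0.05; black line, list median). The carrier list has the highest median at 0.88 and the thioredoxin list the lowest at −0.31.

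Other genes followed the members closely over the 4 libraries. Likeness was the Euclidean distance between log2(TPM + 1) values centred on each gene's mean, among genes of at least 5 TPM on average. Nearest to CBS and CBSL summed were PIP5KL1 (7.73 and 17.2 TPM in DMSO, 95.2 and 122 TPM with JG342), DDIT3, the stress transcription factor CHOP, and ERICH2, at distances of 0.15, 0.26 and 0.29. Nearest to SLC7A11 were GPT2, an alanine aminotransferase (12.02 and 27.6 TPM, then 52.6 and 62.3 TPM), and the aminoacyl-tRNA synthetases GARS and CARS, at 0.14, 0.24 and 0.25. CHAC1 had no such close neighbour: SLC6A9, a glycine carrier, PIP5KL1 and ASS1, an enzyme of arginine synthesis, lay at 0.868, 1.182 and 1.198. CTH was nearest to SERPINB1, DNAJC1 and CHST7, each at a distance of 0.07. With 4 libraries and many candidates, closeness describes these libraries only.

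Facts of the whole comparison bear on these values as follows. The TPM totals ran from 994463 to 994718. Of the 2221 genes that passed, 1304 were higher and 917 lower with JG342, and after scaling to equal medians 966 were higher and 1200 lower, while the median change over all genes moved from 0.03 to −0.03 on the log2 scale. All 10 plasma cell markers checked were expressed, with summed levels of 14838 to 15116 TPM in DMSO and 10251 to 10940 TPM with JG342. Of these markers 4 passed: IRF4 (0.77, limma adjusted p 0.000986) and PRDM1 (0.36, 0.041) as higher, and JCHAIN (−0.86, 0.00117) and TNFRSF17 (−0.44, 0.0472) as lower. JCHAIN, the joining chain of secreted immunoglobulin, read 9907 and 10384 TPM in DMSO and 5732 and 5431 TPM with JG342, and the other 9 markers summed to 5209 and 4454 TPM in DMSO and 5209 and 4820 TPM with JG342. The part of this shift in the members' values was not tested. T cell, monocyte, and epithelial and fibroblast markers summed to at most 14.85, 46.6 and 8.83 TPM in any library, and LYZ made up most of the monocyte sum. The T cell marker CD3G passed as higher, from 3.99 and 5.10 TPM in DMSO to 9.34 and 7.92 TPM with JG342 (0.80, limma adjusted p 0.0152). CD3E, another T cell marker, did not pass at −0.55 (limma adjusted p 0.132). In such bulk samples, fewer cells with a transcript and less of it per cell cannot be told apart.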

How the data were processed

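The authors deposited 1 TPM value per gene and library, with a symbol and a RefSeq accession. HISAT2 2.0.4, Bowtie2 2.2.5 and RSEM 1.2.12 are named per the submitters' processing notes; the genome build, annotation and filters are not given in the sources used here. The unit was read from the values, whose totals are nearly equal, from 994463 to 994718. Of 10326 genes with several RefSeq mRNA accessions, 91.0% are listed under the first in text order, so the accession names a gene rather than an isoform. The depth per library is unknown, and no counting interval was derived.

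The fit took genes whose 4 libraries averaged 1 TPM or more, on log2(TPM + 1), with limma 3.58.1 in R 4.3.3 (lmFit, eBayes with a mean-variance trend, treatment as the only term). Two-sided p-values were adjusted by Benjamini-Hochberg over all 12042 genes, with a threshold of 0.05. A permutation over 2 against 2 libraries cannot go below p = 0.333 and was not used. All 10 members passed the filter, and each also had a DMSO mean above 1 TPM. CBS and CBSL were also summed and the table refitted. GENCODE 29 transcripts were searched for copies of the members with BLAST 2.17.0, at 95% identity over at least 20% of the length.

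The replicate numbers were taken to pair the samples, because each number occurs in both treatments and libraries of 1 number begin alike in their sample descriptions; the labels do not say what that shared beginning marks. Their deviations from group means correlated at r = 0.27 across genes. A fit with that number as a block was an alternative, as were other pseudocounts, filters, scalings and leaving out each library. Named genes are all 10 members, up to 4 genes past the threshold from each list by smallest p, and SLC3A2. The 3 nearest profiles of 4 targets were also named. MAT2A, AHCY, CHAC2, GGCT, LYZ, CD3G, CD3E and the 4 plasma cell markers past the threshold were added after their values were seen. The members and lists were chosen with earlier results of these data known.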

Additional observations from a re-analysis of the deposited data

How the results depend on the processing

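The number of genes past the threshold was 2221. It was 828 without a filter on low values, 4207 with the replicate block, 3985 with the replicate block and median scaling together, and 767 to 1825 when each library was left out. Of the members, 4 passed; 1 passed without a filter (CBS), 8 passed with the replicate block, and 3 to 5 passed when each library was left out. CBS and CBSL summed passed in all 13 alternatives, with 2.75 to 3.71 on leaving out a library and 3.17 to 3.41 otherwise. Over 129 values of single members under alternatives, 112 kept direction and side of the threshold, 7 lost the threshold, 10 gained it and none reversed. CBSL lost it in 5 alternatives, the others being no filter (limma adjusted p 0.125), quantile normalization (0.0606) and no mean-variance trend (0.0549). Of the 27 list genes named by rule, 16 passed without a filter, 18 without the mean-variance trend, 24 after quantile normalization and 25 after median scaling, and none reversed. Over all genes the numbers passing in those runs were, in the same order, 828 of 16057, then 1508, 2000 and 2166 of 12042. CTH was not fitted at a mean of at least 5 TPM. The block changed the calls of CTH, GCLC, GSR and GPX4 and of no other member. A lone library left in a group was assumed to vary like the other group. With 2 libraries per group, and members as low as 0.90 TPM, small changes may go undetected.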

Other observations

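Some neighbouring redox genes differed more by replicate number than by treatment. TXNIP, which binds and inhibits thioredoxin, read 201 and 83.0 TPM in DMSO replicates 1 and 2 and 164 and 71.8 TPM in JG342 replicates 1 and 2, and MGST1, a microsomal glutathione transferase, read 50.01 and 29.2 TPM and then 37.1 and 20.3 TPM. Neither passed (limma adjusted p 0.722 and 0.299; 0.0226 and 0.000467 when blocked on replicate number). TXNIP and MGST1 were singled out after their values were seen.

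A few genes of these pathways were left out of the test for low values. GSTO2, a glutathione transferase, read 0.25 and 0.51 TPM in DMSO and 1.92 and 1.28 TPM with JG342. BHMT, which remethylates homocysteine with betaine, was listed at 0 in both DMSO libraries and at 0.18 and 0.32 TPM with JG342. GPX3 read 0.36 and 0.24 TPM in DMSO and 0 in both JG342 libraries. DPEP1, on the glutathione breakdown list, read 0.26 and 0.66 TPM in DMSO and 0 and 0.25 TPM with JG342.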
